A study of Mus musculus with 4 samples.

Results

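Type I interferon stimulated genes were examined as a set of 41 genes in endothelial cells sorted from mouse tumours, chosen by name as effectors, sensors, and STAT and IRF factors of the interferon response. All 41 were among the 55367 gene names of the deposited table, and all 41 passed the filter on low counts that left 16945 genes for testing. The tumours were subcutaneous grafts of KPC cells, a mouse pancreatic cancer line, in C57BL/6 mice. The mice had been given a control rat IgG (2 libraries) or an anti-CD93 antibody (2 libraries) intraperitoneally 48 hours before the cells were isolated, and the sort kept cells with the endothelial protein CD31 and without the leukocyte protein CD45. CD93 is a transmembrane receptor of endothelial cells, and the series asked what the antibody against it changes in their expression. The labels do not say whether the libraries of a group came from separate mice or from pooled ones, so the errors and p-values below measure only the spread between these libraries.

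Type I interferons are secreted proteins that bind a receptor of IFNAR1 and IFNAR2 chains. The kinases JAK1 and TYK2 then phosphorylate STAT factors such as STAT2. STAT2 joins IRF9 in a complex that binds the interferon-stimulated response element in front of many genes that interferon induces. Many of the genes studied here encode proteins that detect viral nucleic acid, block virus replication or modify other proteins. Several (Irf7, Stat2, Irf9, Ddx58, Ifih1) feed back into the pathway. In tumours, endothelial cells are known to respond to interferons.

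Levels are in CPM, read counts scaled by TMM library sizes to a common total of 1e6, unless given as RPKM. A negative log2 change means a lower level with anti-CD93. Assigned reads numbered 9364294 and 12264231 in the control IgG libraries and 13808077 and 17813993 in those with anti-CD93. One library, control IgG replicate 2, stood apart: its log2 CPM correlated with the other libraries across genes at 0.945 to 0.947, against 0.977 to 0.983 among the others. In it 27718 genes had reads, against 23796 to 25430 in the others, mitochondrial rRNA took 6.20% of reads against 10.97% to 11.8%, and olfactory and vomeronasal receptor genes summed to 359.6 CPM against 52.0 to 56.6 CPM. The part of these differences in the results below was not tested. The 12 endothelial marker genes, none at 0, summed to 11196 and 12651 CPM of all assigned reads with control IgG (replicates 1 and 2) and to 10891 and 11134 CPM with anti-CD93. Of these 12 markers 10 had a negative log2 change (50.9% of all tested genes did) and 7 (58.3%) were lower without overlap (19.7%). Their median was -0.15 (-0.07 without control IgG replicate 2), and 0 passed edgeR's test (2 had an unadjusted p under 0.05). The 12 leukocyte and macrophage markers summed to 40.7 and 65.2 CPM with control IgG and to 73.9 and 61.1 CPM with anti-CD93, the 8 markers of tumour epithelium to 1681 and 2461 against 2392 and 1999 CPM, and the 10 of pericytes and fibroblasts to 2396 and 3108 against 2113 and 2447 CPM. The 6 markers of plasmacytoid dendritic cells, which are known producers of interferon, summed to 1.47 and 3.52 against 1.01 and 1.01 CPM. Siglech and Klk1 had 8 and 4 reads in control IgG replicate 2 and 0 in each other library. Pacsin1 had 10 and 15 reads with control IgG against 7 and 6 with anti-CD93, and Ccr9 8 and 6 against 11 and 8. Cox6a2 and Cd209d had 0 in all libraries. Median log2 changes, with all libraries and without control IgG replicate 2, were 0.10 and 0.98 for the 10 tested leukocyte and macrophage markers. They were 0.10 and 0.39 for tumour epithelium, and -0.16 and 0.03 for pericytes and fibroblasts. The 6 erythroid markers summed to 9.21 and 19.9 against 28.2 and 18.8 CPM, and the 5 tested had medians of 0.48 and 1.63. The part of other cells in the results below was not tested. Cd93 itself was at 1530 and 1759 CPM with control IgG and at 1716 and 1514 CPM with anti-CD93.

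The sequence in front of these genes was searched for elements of the interferon response. RefSeq promoters of GRCm38.p6, from 250 bases before to 50 bases after a start site, were matched to 32 of the 41 genes. The core of the response element, GAAA followed after any 2 bases by another GAAA, on either strand, lay in a promoter of 14 of these 32 genes (43.8%), against 3.99% of the 27025 genes in the promoter table. TTCNNNGAA, the gamma-activated site, lay in a promoter of 9 of the 32 (28.1%), against 9.55% of all genes. A match is only a run of letters and not a measured binding site. The 5 promoters below are those of Isg15 and Ifit1, which lay lower with anti-CD93 in both libraries, of the near-copies Ifit3 and Ifit3b, and of Samd9l, the only gene of the set whose anti-CD93 libraries both lay above both control libraries. Capitals mark this core or its reverse complement, and the start site follows base 250. They are chr4:156200769-156201068 (minus strand, Isg15), chr19:34640639-34640938 (plus, Ifit1), chr19:34583279-34583578 (plus, Ifit3), chr19:34607707-34608006 (plus, Ifit3b) and chr6:3399522-3399821 (minus, Samd9l).
Isg15: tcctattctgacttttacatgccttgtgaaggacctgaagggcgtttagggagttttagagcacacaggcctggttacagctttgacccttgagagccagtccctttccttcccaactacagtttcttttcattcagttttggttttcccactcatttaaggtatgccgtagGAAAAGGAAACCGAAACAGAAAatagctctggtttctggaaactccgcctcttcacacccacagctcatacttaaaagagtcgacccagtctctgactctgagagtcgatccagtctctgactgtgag
Ifit1: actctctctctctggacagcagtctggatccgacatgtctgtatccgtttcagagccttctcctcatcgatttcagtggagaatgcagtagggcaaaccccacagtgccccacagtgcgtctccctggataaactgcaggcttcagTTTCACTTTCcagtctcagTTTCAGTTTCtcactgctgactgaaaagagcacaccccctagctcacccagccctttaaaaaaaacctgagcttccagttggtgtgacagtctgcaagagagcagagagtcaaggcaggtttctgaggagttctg
Ifit3: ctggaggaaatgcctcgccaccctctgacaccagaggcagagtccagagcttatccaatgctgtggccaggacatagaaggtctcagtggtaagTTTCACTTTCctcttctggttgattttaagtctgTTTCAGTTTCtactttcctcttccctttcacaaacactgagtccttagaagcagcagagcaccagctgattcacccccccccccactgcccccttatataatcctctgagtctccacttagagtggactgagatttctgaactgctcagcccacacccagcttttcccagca
Ifit3b: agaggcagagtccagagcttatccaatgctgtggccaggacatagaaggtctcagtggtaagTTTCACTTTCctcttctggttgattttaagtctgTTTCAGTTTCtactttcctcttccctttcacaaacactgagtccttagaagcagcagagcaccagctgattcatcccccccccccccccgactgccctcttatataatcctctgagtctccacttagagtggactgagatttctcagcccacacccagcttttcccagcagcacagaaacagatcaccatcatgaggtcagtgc
Samd9l: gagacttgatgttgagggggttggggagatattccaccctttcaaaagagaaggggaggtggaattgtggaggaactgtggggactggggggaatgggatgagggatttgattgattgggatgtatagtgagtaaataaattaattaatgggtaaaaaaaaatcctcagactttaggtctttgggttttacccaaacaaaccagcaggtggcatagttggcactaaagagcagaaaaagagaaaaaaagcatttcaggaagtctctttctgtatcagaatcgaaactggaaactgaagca

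Isg15 held 3 overlapping matches that begin 78, 72 and 66 bases before the start site. Ifit1 held 2 separate matches on the other strand, beginning 104 and 85 bases before it. Ifit3 and Ifit3b each held 2 matches, at 156 and 122 and at 188 and 154 bases before their start sites. Shifted by 32 bases, the promoters of this pair were identical at 201 of 268 positions (75.0%) without gaps. No alignment with gaps was made, so the run of c, which differs in length between the 2 promoters, lowers this share. Samd9l held none in this window. The 14 genes with a match all had negative log2 changes (50.9% of all tested genes did). Their median was -0.38 with all libraries and -0.19 without control IgG replicate 2. Of the 18 genes with a promoter and no match, 15 had negative log2 changes, with a median of -0.34 and, without that library, of -0.05. The difference between these medians was not tested.

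The genes spanned a wide range of levels in these endothelial cells. Per exonic length, 36 of the 41 lay above the median of all tested genes, with a median of 10.9 RPKM (CPM divided by exonic length in kb) against 3.61 RPKM. Ifitm3, a membrane protein that keeps viruses from fusing with endosomes, was highest at 240.0 to 334 RPKM over the 4 libraries and did not overlap in range with any other gene of the set. Bst2, which tethers budding virions to the cell surface, followed at 28.1 to 64.6 RPKM. Below it, Trim25 (26.1 to 29.3 RPKM), Samd9l (17.95 to 28.1 RPKM), Parp14 (22.2 to 26.5 RPKM), Irf1 (19.1 to 30.7 RPKM) and Isg15 (14.7 to 34.9 RPKM) overlapped in range, and so do not differ in order beyond the spread of the libraries. At the bottom, Oas3 was at 0.138 to 0.212 RPKM, from 12 to 18 reads a library, and Mx1 at 0.302 to 4.06 RPKM. Oas3 lay under Mx1 in every library.

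**Figure D1:**
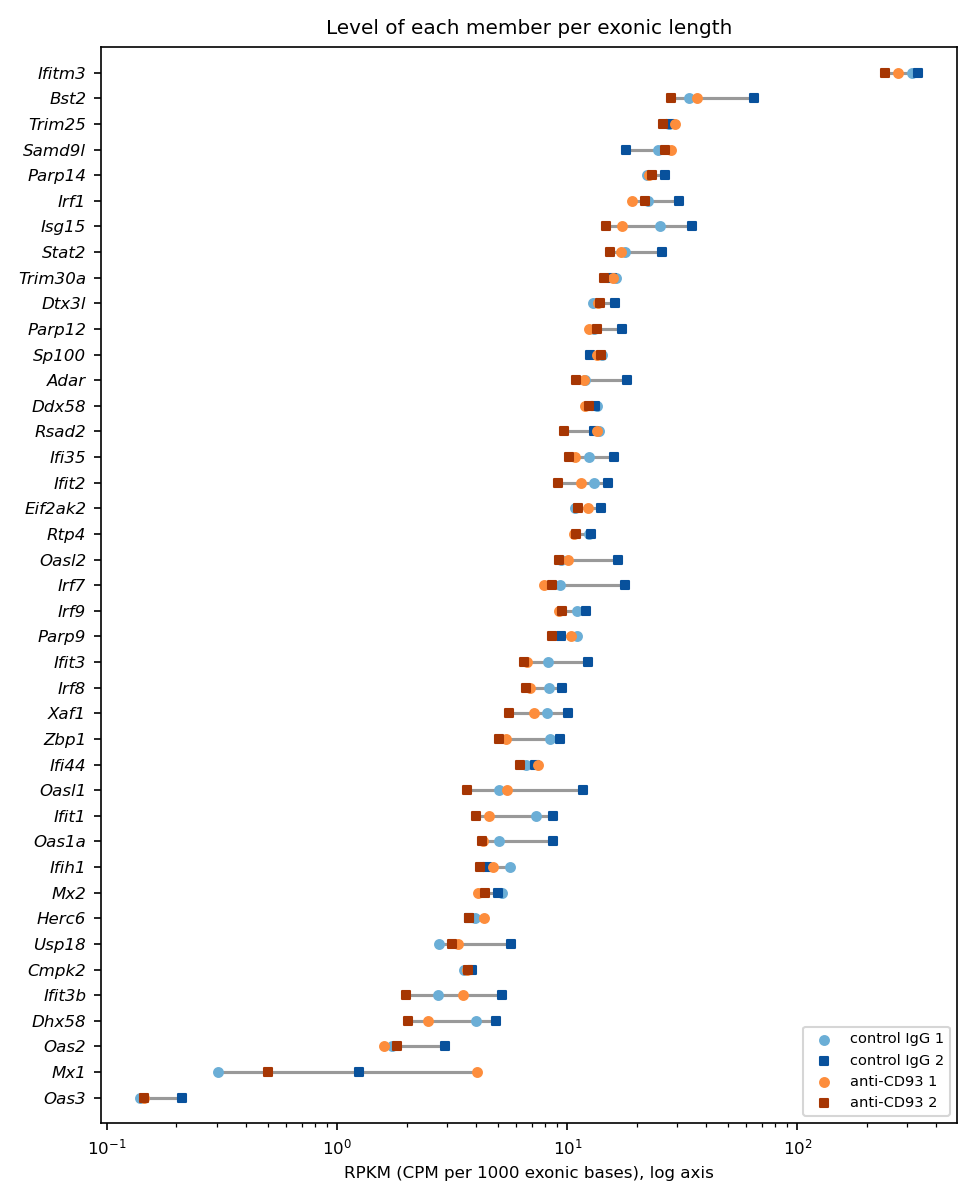
Level of each of the 41 genes in RPKM (CPM divided by exonic length in kb, log axis), 1 point per library, with a line from the lowest to the highest library; genes are ordered by their mean. Ifitm3 stands alone at the top at 240.0 to 334 RPKM, Oas3 at the bottom at 0.138 to 0.212 RPKM, and Mx1 has the widest range, 0.302 to 4.06 RPKM.

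Most of the set lay lower with anti-CD93, by small amounts, and no gene of it passed the test. By edgeR's quasi-likelihood test 0 of 41 genes had an adjusted p under 0.05 (0.0% of all tested genes were called), with adjusted p values from 0.812 to 0.996. DESeq2 and limma-voom also called 0 of the 41 (0.0236% and 0.0% of all tested genes), as did edgeR with the replicate number as a block (0.0826%). Without adjustment, 6 genes had p under 0.05, all of them lower: Ifit1, Ifit3, Dhx58, Zbp1, Irf7 and Isg15. Over all tested genes 4.49% passed that level and 2.5% did so as lower. Of the 41, 37 had a negative log2 change (50.9% of all tested genes did), a count that was 34 with no count filter and 38 after a trend with gene length was taken out of each library. The median over the set was -0.34, and over all tested genes -0.01. In 19 genes (46.3%) both anti-CD93 libraries lay under both control libraries, against 19.7% of all tested genes, and in 1, Samd9l, both lay above, against 20.1%. The endothelial markers lay lower without overlap at a share of 58.3%, and their part in the result was not tested. The genes were named with earlier results of these libraries known, so these shares describe the set and test nothing.

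The size of the difference rested on control IgG replicate 2. Without it 28 of 41 genes had a negative log2 change (49.4% of all tested genes) and the median was -0.14. Without control IgG replicate 1, when replicate 2 alone stood for the group, the median was -0.49 and edgeR called 23 of the 41 genes (56.1%), 22 of them lower and Samd9l higher, against 26.8% of all tested genes in either direction and 12.8% as lower. Without replicate 2 it called 0 of the 41 and 0.0767% of all tested genes. Within the control group, 32 of 41 genes were higher in replicate 2 than in replicate 1, by a median log2 difference of 0.29, against 50.8% and 0.01 over all tested genes. This library had the highest value for 29 of the 41 genes (70.7%) and anti-CD93 replicate 2 the lowest for 23 (56.1%). Over all tested genes these shares were 38.7% and 20.2%. Anti-CD93 replicate 2 was highest for 0 of the 41. Compared with control IgG replicate 1 alone, both anti-CD93 libraries were lower in 24 genes (58.5%), against 35.3% of all tested genes.

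The summed level of the 41 genes, in CPM of all assigned reads, was 2246 and 2618 with control IgG (replicates 1 and 2, the order used throughout) against 2154 and 2012 with anti-CD93. The groups did not overlap, and the means were 2432 ± 263 and 2083 ± 100.3 CPM (SD). The two-sided exact permutation test over the 4 samples gave p = 0.333, the smallest that 2 against 2 allows. In a bulk library, fewer responding cells and less RNA per cell cannot be told apart.

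**Figure D2:**
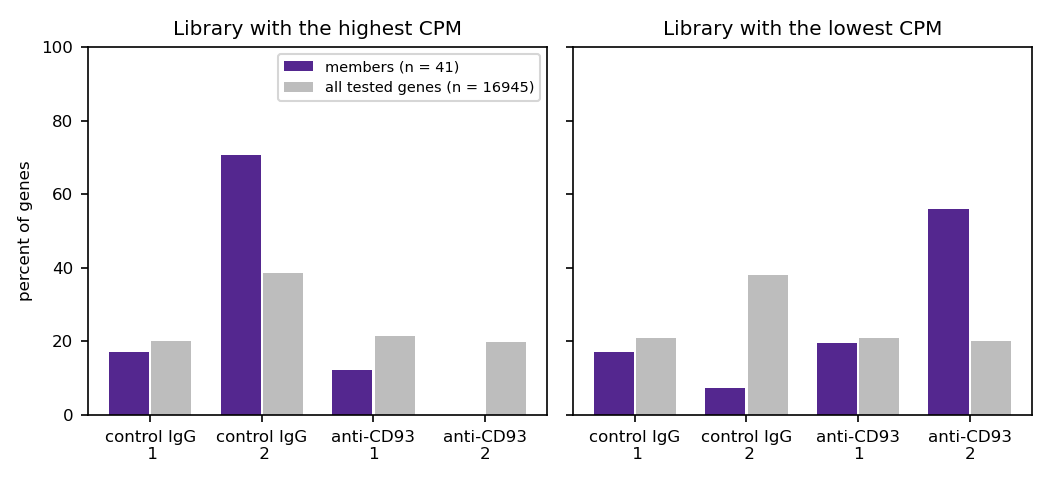
Percent of genes whose highest (left) or lowest (right) CPM fell in each of the 4 libraries, for the 41 genes of the set (purple) and for all 16945 tested genes (grey). The second control library was highest for 70.7% of the set and anti-CD93 replicate 2 was lowest for 56.1%, against 38.7% and 20.2% of all tested genes.

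All 5 transcription factors lay lower with anti-CD93 in both libraries than in both control libraries, as did 19.7% of all tested genes. Their median log2 change was -0.40 (-0.19 without control IgG replicate 2). Stat2 (chromosome 10, 128270559 to 128292849, GRCm38), a subunit of the complex that reads the response element, was at 106 and 152 CPM with control IgG and at 101.2 and 90.5 CPM with anti-CD93. The second control library stood out, and replicate 1 lay just above the anti-CD93 pair (log2 change -0.43, SE 0.22, and -0.14 without control IgG replicate 2). Irf7 (chromosome 7, 141262706 to 141266481), which amplifies interferon production, was at 35.2 and 67.2 against 29.8 and 32.3 CPM (log2 change -0.72, SE 0.30). One control value was near those with anti-CD93, and without control IgG replicate 2 the change was -0.19.

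Irf1 and Irf8, which interferon-gamma also induces, showed differing spreads. Irf8 (chromosome 8, 120736358 to 120756694) was at 58.6 and 66.9 CPM with control IgG and at 48.6 and 46.6 CPM with anti-CD93 (log2 change -0.40, SE 0.19). Here the libraries of each group lay close together, and the change was -0.30 without control IgG replicate 2. Irf1 (chromosome 11, 53770014 to 53778374) was at 88.9 and 122 against 75.9 and 86.4 CPM (log2 change -0.38, SE 0.21, and -0.13 without that library). Of its exonic bases 20.02% are shared with the antisense gene Gm17334, where the counting could not assign reads to either. Irf9 (chromosome 14, 55603571 to 55610030), the DNA-binding partner of STAT2, was at 59.5 and 64.9 against 49.7 and 51.3 CPM (log2 change -0.30, SE 0.18). This factor too had pairs that did not overlap.

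The log2 changes of the 6 sensors and double-stranded RNA-binding enzymes ran from -0.98 to -0.08, and 0 passed edgeR's test. Of these 6, 4 lay lower without overlap (66.7%, against 19.7% of all tested genes). Zbp1 (chromosome 2, 173206612 to 173218923), which binds left-handed nucleic acid and triggers cell death, was at 29.7 and 32.9 CPM with control IgG and at 19.2 and 17.7 CPM with anti-CD93. Dhx58 (chromosome 11, 100694884 to 100704271), which encodes LGP2, a helicase that tunes the other RNA sensors, was at 13.1 and 16.1 against 8.14 and 6.61 CPM. In both genes the libraries of a group lay close together and the groups were apart. The log2 change was -0.76 (SE 0.21) for Zbp1 and -0.98 (SE 0.28) for Dhx58, and without control IgG replicate 2 it was -0.69 and -0.83. Their adjusted p was 0.812 by edgeR.

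The RNA helicases that start the signal had smaller changes. Ddx58 (chromosome 4, 40203773 to 40239828), which encodes RIG-I, was at 94.6 and 92.6 against 84.2 and 87.7 CPM (log2 change -0.12, SE 0.17), and its groups did not overlap. Ifih1 (chromosome 2, 62595798 to 62646255), which encodes MDA5, was at 45.8 and 36.6 against 38.7 and 34.1 CPM (log2 change -0.18, SE 0.21), with overlap. Eif2ak2 (chromosome 17, 78852564 to 78882573), which encodes the kinase PKR that stops translation on double-stranded RNA, was at 55.1 and 71.4 against 62.5 and 56.6 CPM. Its log2 change of -0.08 (SE 0.20) was 0.11 without control IgG replicate 2. Adar (chromosome 3, 89715022 to 89753446), the adenosine deaminase that edits double-stranded RNA, was at 96.4 and 148 against 96.3 and 88.2 CPM. The first control library barely cleared the anti-CD93 pair. The log2 change of -0.41 (SE 0.23) was -0.06 without control IgG replicate 2 and -0.68 without control IgG replicate 1. Adar shares 16.8% of its exonic bases with Chrnb2 on the other strand.

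The IFIT genes, grouped here as RNA-binding proteins, form a cluster on chromosome 19 in the order Ifit2, Ifit3, Ifit3b and Ifit1. All 4 had negative log2 changes (50.9% of all tested genes did), with a median of -0.57 (-0.33 without control IgG replicate 2). In 3 of them (75%) the anti-CD93 libraries lay lower without overlap, against 19.7% of all tested genes. Ifit1 (34640871 to 34650009) was at 19.5 and 23.0 CPM with control IgG and at 12.1 and 10.7 CPM with anti-CD93. Each anti-CD93 library lay well under each control library (log2 change -0.89, SE 0.24, adjusted p = 0.812 by edgeR, and -0.77 without control IgG replicate 2). Ifit2 (34550694 to 34576419) was at 51.3 and 58.9 against 45.1 and 35.9 CPM (log2 change -0.44, SE 0.21).

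Reads of the middle pair are less certain, since 31.7% of the 100-base stretches of Ifit3 transcripts and 27.4% of those of Ifit3b occur in the other gene. Ifit3 (34583531 to 34588731) was at 14.4 and 21.5 against 11.6 and 11.3 CPM (log2 change -0.64, SE 0.27). The highest library was control IgG replicate 2, and the change was -0.33 without it. Ifit3b (34607970 to 34613401) was at 5.47 and 10.4 against 7.06 and 4.00 CPM, so that its groups overlapped. Its log2 change of -0.50 (SE 0.43) was 0.03 without control IgG replicate 2.

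The OAS enzymes make oligoadenylates that activate RNase L. All 5 OAS and OAS-like genes lie on chromosome 5 and had negative log2 changes (50.9% of all tested genes did). Their median was -0.44 (-0.02 without control IgG replicate 2). Oasl1 (114923240 to 114937915) was at 13.1 and 30.5 CPM with control IgG and at 14.2 and 9.52 CPM with anti-CD93. Oasl2 (114896936 to 114912234) was at 59.9 and 106 against 63.8 and 58.6 CPM. In both, control IgG replicate 2 alone was high and replicate 1 lay between the anti-CD93 libraries. The log2 changes of -0.87 (SE 0.41) and -0.44 (SE 0.27) became -0.14 and 0.03 without it.

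Oas1a (120896256 to 120907521) was the only gene of this group lower without overlap (20%, against 19.7% of all tested genes). It was at 9.46 and 16.3 against 8.08 and 7.99 CPM (log2 change -0.67, SE 0.33, and -0.24 without control IgG replicate 2). Its count is uncertain, because 40.9% of the 100-base stretches of its transcripts also occur in Oas1g. Oas2 (120730333 to 120749853) was at 7.67 and 13.1 against 7.12 and 8.06 CPM (log2 change -0.44, SE 0.34, and -0.02 without that library). For Oas3, with 12 and 14 reads against 18 and 14, no difference was detectable at this depth (log2 change -0.27, SE 0.65).

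**Figure D3:**
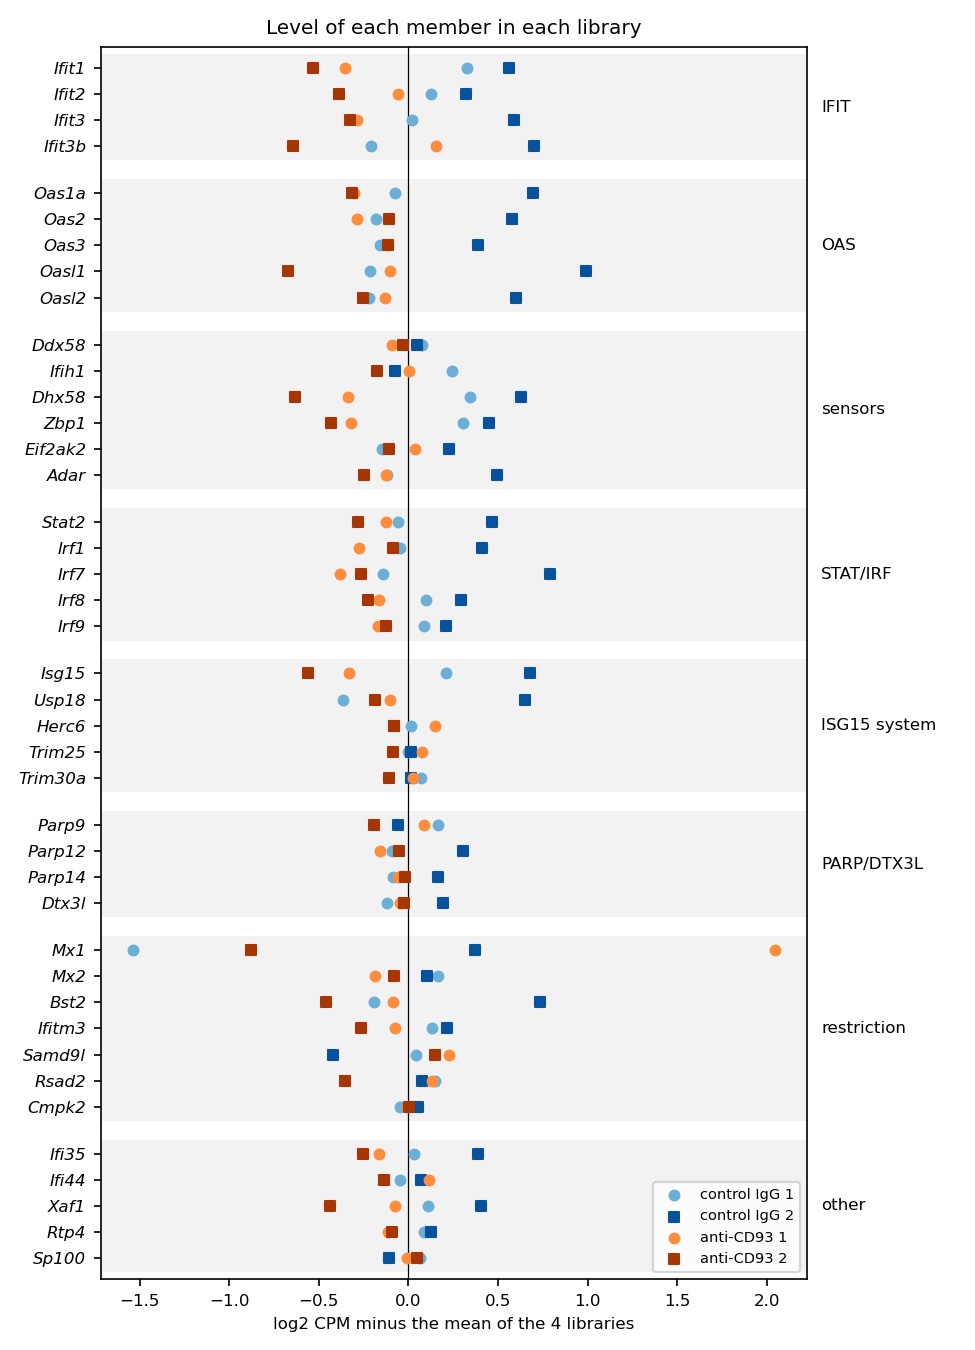
Level of each gene in each of the 4 libraries, as log2 CPM minus the mean of the 4, grouped by role; circles are replicate 1 and squares replicate 2, blue control IgG and orange to brown anti-CD93. The dark blue squares of control IgG replicate 2 lie farthest right for 29 of the 41 genes. Both control points lie to the right of both anti-CD93 points in 19 genes (46.3%, against 19.7% of all tested genes). Ifit1, Zbp1, Dhx58 and Isg15 are among these 19.

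Within the ISG15 system, only the modifier itself lay lower without overlap, 1 of 5 genes (20%) against 19.7% of all tested genes. Isg15 (chromosome 4, 156199455 to 156200796) encodes a ubiquitin-like protein that is attached to other proteins. It was at 17.7 and 24.5 CPM with control IgG and at 12.1 and 10.3 CPM with anti-CD93. Both anti-CD93 libraries lay under both controls (log2 change -0.91, SE 0.26, adjusted p = 0.812 by edgeR, and -0.66 without control IgG replicate 2). Usp18 (chromosome 6, 121245906 to 121270917), which removes ISG15 and dampens the receptor, was at 7.75 and 15.8 against 9.32 and 8.79 CPM. Here control IgG replicate 1 was the lowest library, and the log2 change of -0.37 (SE 0.37) was 0.22 without control IgG replicate 2.

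The ubiquitin ligases of this group were close to level. Herc6 (chromosome 6, 57581000 to 57664632), the mouse ligase that attaches ISG15, was at 36.9 and 34.6 against 40.4 and 34.6 CPM (log2 change 0.07, SE 0.20), and it shares 13.7% of its exonic bases with Gm45193. Trim30a (chromosome 7, 104409025 to 104465193), a negative regulator of inflammatory signalling, was at 67.1 and 64.4 against 65.0 and 59.3 CPM (log2 change -0.08, SE 0.18). Trim25 (chromosome 11, 88999376 to 89020293), which ubiquitinates RIG-I, was at 159 and 161 against 169 and 150 CPM (log2 change -0.005, SE 0.17). In all 3 the difference was smaller than its standard error. The groups overlapped in each of them, and over all tested genes 19.7% were lower and 20.1% higher without overlap.

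The ADP-ribosylation genes overlapped between the groups in all 4 cases. Over all tested genes 19.7% were lower and 20.1% higher without overlap. The median log2 change of the 4 was -0.09 (0.02 without control IgG replicate 2). Parp14 (chromosome 16, 35832874 to 35871544), a large enzyme that adds single ADP-ribose units, was at 207 and 247 CPM with control IgG and at 212 and 217 CPM with anti-CD93. Parp12 (chromosome 6, 39086410 to 39118349), of the same enzyme class, was at 52.2 and 68.7 against 49.8 and 53.5 CPM (log2 change -0.23, SE 0.21). Both were highest in control IgG replicate 2.

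Parp9 and Dtx3l form an enzyme complex and are neighbours on chromosome 16, transcribed in opposite directions, with 458 exonic bases in common. Parp9 (35938470 to 35972605) was at 53.5 and 45.8 against 50.6 and 41.7 CPM (log2 change -0.11, SE 0.20). Dtx3l (35926511 to 35939151) was at 74.1 and 92.3 against 78.0 and 79.3 CPM (log2 change -0.08, SE 0.19). The control libraries were in opposite order for these partners, so the pair did not move together across the controls.

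The restriction factors held both directions. Ifitm3 (chromosome 7, 141009586 to 141010770) was at 214 and 227 CPM with control IgG and at 185 and 163 CPM with anti-CD93 (log2 change -0.34, SE 0.17, and -0.30 without control IgG replicate 2). Its groups did not overlap. Bst2 (chromosome 8, 71534255 to 71537456) was at 30.6 and 58.3 against 32.9 and 25.4 CPM (log2 change -0.60, SE 0.31, and -0.07 without control IgG replicate 2). Its only high library was control IgG replicate 2.

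Samd9l (chromosome 6, 3372257 to 3399572), which restrains translation and cell growth, was at 134 and 97.4 CPM with control IgG and at 153 and 144 CPM with anti-CD93. The library that was highest for most of the set, control IgG replicate 2, was here the lowest (log2 change 0.36, SE 0.20, adjusted p = 0.812 by edgeR, and 0.14 without it).

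Mx1 and Mx2 are dynamin-like GTPases that trap viral components, and Mx1 is carried as a defective allele by many inbred strains. Mx1 (chromosome 16, 97447035 to 97462907) was at 1.14 and 4.71 CPM with control IgG and at 15.4 and 1.89 CPM with anti-CD93, from 14, 44, 272 and 26 reads. Anti-CD93 replicate 1 alone was high, and the log2 change of 1.61 (SE 0.93) was -0.60 without it. It was 2.94 without control IgG replicate 2 and 2.42 without anti-CD93 replicate 2. Its neighbour Mx2 (97535308 to 97560900) was at 18.8 and 18.1 against 14.7 and 15.9 CPM (log2 change -0.27, SE 0.23) and gave no such high value in that library.

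Rsad2 and Cmpk2 are neighbours on chromosome 12, transcribed away from each other. Viperin is an enzyme that converts CTP into a chain terminator. Rsad2 (26442746 to 26456452), which encodes viperin, was at 59.3 and 56.3 against 58.5 and 41.8 CPM (log2 change -0.20, SE 0.22). Cmpk2 (26469204 to 26479837), a nucleotide kinase, was at 14.8 and 16.0 against 15.3 and 15.4 CPM. This was the gene of the set with the log2 change nearest 0 (-0.003, SE 0.23).

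Of the 5 remaining genes, 3 lay lower without overlap (60%, against 19.7% of all tested genes). Xaf1 (chromosome 11, 72301629 to 72313733), a promoter of apoptosis, was at 38.3 and 47.0 CPM with control IgG and at 33.7 and 26.1 CPM with anti-CD93 (log2 change -0.51, SE 0.22, and -0.35 without control IgG replicate 2). Ifi35 (chromosome 11, 101448407 to 101458698) was at 21.5 and 27.5 against 18.7 and 17.6 CPM (log2 change -0.43, SE 0.23, and -0.24 without that library). Rtp4 (chromosome 16, 23520291 to 23614222) was at 26.3 and 27.1 against 22.9 and 23.2 CPM (log2 change -0.21, SE 0.20). Ifi35 shares 16.8% of its exonic bases with Gm11626, and Rtp4 13.9% with Gm45338.

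The other two were level. Sp100 (chromosome 1, 85649988 to 85709998), a component of nuclear PML bodies, was at 107 and 95.0 against 102 and 106 CPM (log2 change 0.04, SE 0.17). Ifi44 (chromosome 3, 151730922 to 151749960) was at 40.7 and 44.2 against 45.5 and 38.2 CPM (log2 change -0.02, SE 0.20).

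Ifit1, Dhx58, Zbp1 and Isg15 were the 4 genes of the set (9.76%) with a log2 change under -0.5 both with all libraries and without control IgG replicate 2, against 5.37% of all tested genes. In these genes the anti-CD93 mean was 50.5% to 58.95% of the control mean. For 27 of the 41 genes the log2 change moved by over 1.5 times without that library, and for 11 it turned sign. The sign also turned for Trim25, Cmpk2 and Ifi44 with no count filter, and for Herc6, Cmpk2 and Sp100 with the length trend removed, all of them genes whose change was smaller than its SE.

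**Figure D4:**
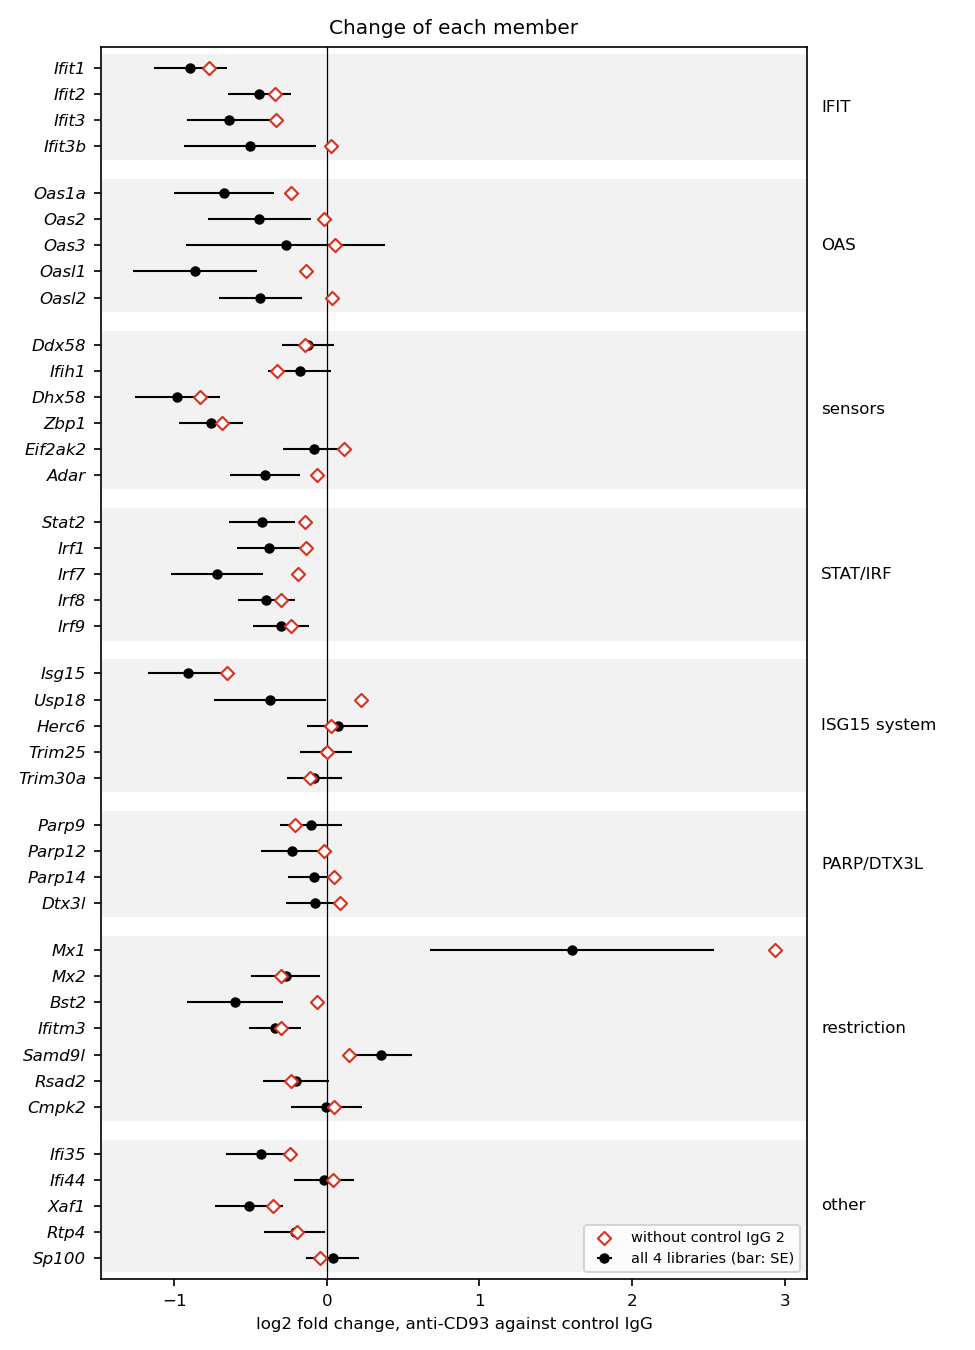
Log2 fold change of each gene, anti-CD93 against control IgG, with all 4 libraries (black, bar SE) and without control IgG replicate 2 (red diamonds), grouped by role. The diamonds of Ifit1, Dhx58, Zbp1 and Isg15 remain under -0.5, those of the OAS genes other than Oas1a move to between -0.14 and 0.05, and Mx1 lies far to the right at 1.61.

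Upstream of the set, ligand genes gave few or no reads, and 0 of the tested receptor and kinase genes passed edgeR's test. Of 21 interferon ligand genes 17 had 0 reads in all 4 libraries, and 4 had at most 5 reads in a library. A count of 0 allows up to 0.168 to 0.320 CPM in these libraries, for counting error only. Ifnar1 and Ifnar2, the receptor chains, were at 124 and 114 against 128 and 119 CPM and at 53.6 and 48.3 against 43.2 and 48.0 CPM, with log2 changes of 0.06 (SE 0.17) and -0.16 (SE 0.19). The Ifnar1 groups overlapped and those of Ifnar2 did not. Of 9 receptor and kinase genes, 5 were higher and 4 lower, around a median of 0.04 (-0.005 without control IgG replicate 2). Tyk2 was at 32.8 and 37.8 against 26.7 and 28.5 CPM (log2 change -0.36, SE 0.20, and -0.25 without that library). Jak1 was at 601 and 658 against 532 and 553 CPM (log2 change -0.21, SE 0.16, and -0.15 without that library). Neither overlapped, and 3 of the 9 (33.3%) lay lower without overlap, against 19.7% of all tested genes.

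Of 14 tested genes that induce interferon, 10 were lower and 4 higher (median -0.09, and -0.02 without control IgG replicate 2). The adaptor Mavs, through which RIG-I and MDA5 signal, was at 16.6 and 24.6 against 13.4 and 12.1 CPM (log2 change -0.69, SE 0.27, and -0.38 without that library). Sting1, the adaptor of DNA sensing, was at 77.1 and 128 against 71.1 and 72.1 CPM (log2 change -0.52, SE 0.25, and -0.11 without it). Among 10 negative regulators 6 were lower (median -0.09, and -0.05 without that library). Socs3, a feedback inhibitor of cytokine receptors, was at 466 and 843 against 387 and 367 CPM (log2 change -0.79, and -0.31 without it). Irf2bp1 was at 27.5 and 58.5 against 21.1 and 25.9 CPM (log2 change -0.87, and -0.23 without it).

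Further interferon-induced genes outside the set lay lower to a smaller extent. Of 47 tested, 34 were lower (72.3%, against 50.9% of all tested genes), 15 of them without overlap (31.9%, against 19.7%). Another 6 of the 47 were higher without overlap, against 20.1% of all tested genes. Their median was -0.21, but -0.01 without control IgG replicate 2. The PML body gene Sp110 was at 18.4 and 37.5 against 12.0 and 13.4 CPM (log2 change -1.13, SE 0.34, and -0.53 without it). Cxcl10, a chemokine for T cells, was at 11.8 and 15.7 against 6.84 and 8.86 CPM (log2 change -0.81, SE 0.29, and -0.60 without it). Of 17 tested GBP and IRG GTPases, which interferon-gamma chiefly induces, 11 were lower (median -0.13, and -0.06 without that library). Tgtp2 was at 33.6 and 94.8 against 34.1 and 32.8 CPM and Tgtp1 at 11.4 and 15.4 against 9.60 and 9.15 CPM; these are near-identical copies, so their counts are uncertain. No gene of any of these lists passed edgeR's test (0 of 97 tested, 5 with an unadjusted p under 0.05), and the differences between lists were not tested.

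**Figure D5:**
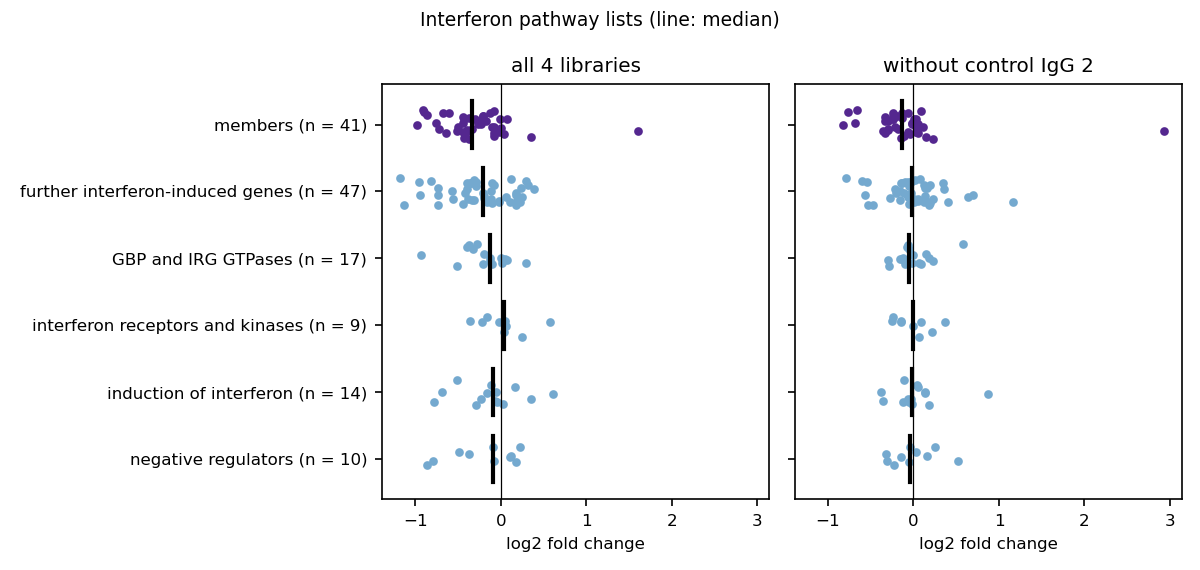
Log2 fold changes of the tested genes of each list, 1 point per gene with a line at the median, with all 4 libraries (left) and without control IgG replicate 2 (right). The medians of the set (-0.34 and -0.14) lie left of those of the further interferon-induced genes (-0.21 and -0.01) and of the GBP and IRG genes (-0.13 and -0.06) on both sides.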

How the data were processed

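Total RNA of the sorted cells went into libraries with a stranded kit for small inputs and was read as pairs, per the labels' protocols. Per the file headers, featureCounts 2.0.1 was run by the authors against GENCODE vM25 (GRCm38) with reads summed by gene name, and the deposited values are raw read counts. The recorded command has no paired-end, strand or multiple-overlap option, so the mates of a pair count separately, reads from antisense partners cannot be told apart, and reads in exons of several genes were left unassigned. STAR 2.7.5b and DESeq2 1.28.1 are named in the submitters' processing notes. A second deposited table held the same counts (0 of 221468 cells differed).

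The filter was filterByExpr with a minimum of 10 reads, the scaling TMM, and the test the quasi-likelihood test of edgeR 4.0.16 in R 4.3.3 (robust, group as its only term, all 4 libraries), with Benjamini-Hochberg adjustment over 16945 genes and a threshold of 0.05. SE is the size of the log2 change divided by the root of its F value. DESeq2 1.42.0, limma-voom 3.58.1, other scalings and filters, halved counts, removal of the length trend, the replicate block and each library left out were the alternatives, and the fits were tested on simulated data. Promoters came from RefSeq (GRCm38.p6).

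The members and gene lists were chosen with earlier results of these data known. The naming rule took the up to 4 genes of each role with the smallest p, all genes with a positive change, those with near-identical copies (Ifit3, Ifit3b, Oas1a), any with 10 or fewer reads in a library, and 2 genes of each pathway list. The remaining members and the receptor chains were added after their values were seen. One gene of the receptor and kinase list is not reported here.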

Additional observations from a re-analysis of the deposited data

How the results depend on the processing

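With 2 libraries per group and 9364294 to 17813993 assigned reads a library, edgeR called 0 of 16945 genes, and 761 had an unadjusted p under 0.05. It called 48 with no count filter, 14 with the replicate block and 0 to 4549 with 1 library left out (13 without control IgG replicate 2, 1 without anti-CD93 replicate 2), and DESeq2 called 4. Of the 41 genes, 0 to 23 were called with 1 library left out, and 0 under each other alternative. Their median log2 change of -0.34 ran from -0.49 (without control IgG replicate 1) to -0.14 (without control IgG replicate 2), and from -0.35 to -0.29 under the other alternatives. The count of genes lower without overlap, 19, ran from 17 to 20 under the alternatives that keep all libraries. With 1 library left out, where fewer libraries can overlap, it ran from 21 to 31. It was 31 without control IgG replicate 1, 29 without anti-CD93 replicate 1 and 21 without anti-CD93 replicate 2. Without control IgG replicate 2 it was 24 (58.5%), against 35.3% of all tested genes, a share that was 19.7% with all libraries. For the other fits with 1 library left out that share is not given here. Their higher counts therefore do not show a stronger difference. Single genes turned sign when 1 library was left out, and their ranges over the 4 such fits follow. Those that turned without control IgG replicate 2 were Ifit3b (-0.97 to 0.029), Oas3 (-0.56 to 0.053), Oasl2 (-0.79 to 0.031), Eif2ak2 (-0.26 to 0.11), Usp18 (-0.80 to 0.22), Parp14 (-0.20 to 0.050), Dtx3l (-0.23 to 0.085), Sp100 (-0.045 to 0.13) and Ifnar1 (-0.0048 to 0.12). Trim25 (-0.082 to 0.075) and Ifi44 (-0.14 to 0.10) turned without that library and without anti-CD93 replicate 2, and Cmpk2 (-0.055 to 0.047) without that library and without anti-CD93 replicate 1. Parp9 (-0.25 to 0.027) turned without control IgG replicate 1 and without anti-CD93 replicate 2, Rsad2 (-0.46 to 0.018) without anti-CD93 replicate 2, and Herc6 (-0.040 to 0.18) and Mx1 (-0.60 to 2.94) without anti-CD93 replicate 1. With no count filter Trim25 was at 0.043, Cmpk2 at 0.046 and Ifi44 at 0.031, and with the length trend removed Herc6 was at -0.0031, Sp100 at -0.0076 and Cmpk2 at 0.026. The cause of these shifts was not tested. The labels do not say that a replicate number marks a shared mouse or day, and the differences between replicates 1 and 2 in the 2 groups correlated at -0.0155 across genes. With the replicate block 0 of the 41 were called and their median was -0.30.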
